A study of Mus musculus with 6 samples.

Results

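Tmx3 and the protein disulfide isomerases of the endoplasmic reticulum (ER) were examined in the hippocampus of Ube3a-deficient mice. The 10 genes were Tmx1, Tmx2, Tmx3, Tmx4, P4hb, Pdia3, Pdia4, Pdia5, Pdia6 and Txndc5, out of 25239 gene symbols listed, and all 10 were among the 14445 genes with enough counts to be tested. Tmx3 was chosen by its fall in the comparison described here, that is by the read counts of the same 6 libraries, so its values are a description and no test of it is offered as evidence. The other 9 genes were taken by family name, with earlier results of these data known. RNA-seq had been run on hippocampi of 3 wild-type mice, labelled Ube3a m+/p+ and called WT here. They were compared with 3 mice labelled Ube3a m-/p+, which lack the maternal copy of Ube3a and keep the paternal copy. All 6 were males of strain C57BL/6, 6 to 8 weeks old per the methods of the study, with 1 library from the hippocampus of each. Each replicate is therefore a separate mouse. The hippocampus was sequenced as bulk tissue, in which fewer cells of a type and less RNA per cell cannot be told apart.

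Proteins that enter the ER form disulfide bonds between their cysteines, and enzymes of the protein disulfide isomerase family make, break and rearrange these bonds through thioredoxin-like domains. P4hb, Pdia3, Pdia4, Pdia5, Pdia6 and Txndc5 encode soluble enzymes of the ER lumen, whereas Tmx1, Tmx2, Tmx3 and Tmx4 encode relatives that are anchored in the ER membrane. The enzymes pass electrons to ER oxidases such as Ero1 and work beside chaperones such as BiP, calnexin and calreticulin. Neurons rely on this machinery to fold receptors, channels and adhesion molecules. Ube3a encodes a ubiquitin ligase that neurons transcribe mainly from the maternal copy, and its maternal loss models Angelman syndrome.

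Counts assigned to genes numbered 7293272 to 8675252 in the WT libraries and 8871052 to 11314409 in the Ube3a m-/p+ libraries. Levels are given as CPM, the counts of a gene scaled by the summed gene counts of its library. Ube3a itself was at 104, 141 and 151 CPM in WT mice 1, 2 and 3, and the Ube3a m-/p+ mice were at 96.8, 82.9 and 80.6 CPM in the same order of number, which is kept below. All 3 Ube3a m-/p+ mice were thus below all 3 WT mice, with a log2 fold change of -0.58 (SE 0.12, adjusted p = 0.0363, edgeR), and the exact two-sided permutation test gave p = 0.1, the smallest value that 3 against 3 mice allow. The libraries also differed in how read counts followed the GC content of transcripts. GC content and a library's distance from the 6-library average were correlated across 14201 genes. Spearman's rho for WT mouse 1 was 0.0463, for mouse 2 -0.509 and for mouse 3 -0.576, while the Ube3a m-/p+ libraries gave 0.0595, 0.53 and 0.532. The trend therefore ran in opposite directions in mice 2 and 3 of the genotypes, while the mice numbered 1 were close to each other. For this reason the fold changes of the 10 genes, and of other genes that passed the test, are also given after offsets for GC content and transcript length were added to the fit. Under these offsets Ube3a was at -0.21 (adjusted p = 0.209, edgeR). The 10 genes are also given for the mice numbered 1 alone.

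The 10 genes spanned a wide range of levels in the hippocampus. Divided by the length of all annotated exons, the median level of the WT mice was 72.9 CPM per kilobase for Tmx2, 57.3 for Pdia3, 32.6 for P4hb, 22.6 for Tmx4 and 18.7 for Pdia6. Next came Tmx1 at 13.0, Pdia4 at 11.7, Txndc5 at 10.3, Tmx3 at 8.91 and Pdia5 at 1.45 CPM per kilobase. Neighbours in this order whose WT mice overlapped were Tmx4 and Pdia6, Tmx1 and Pdia4, Pdia4 and Txndc5, and Txndc5 and Tmx3, so these pairs cannot be ranked. In the Ube3a m-/p+ mice Pdia6 (21.7 to 25.4 CPM per kilobase) lay above Tmx4 (19.3 to 19.6), and Pdia4 (12.7 to 15.2) above Tmx1 (11.04 to 11.99), without overlap. Tmx3, at 5.40 to 5.91 CPM per kilobase in the Ube3a m-/p+ mice, lay below the lowest Txndc5 value of 11.4 there. Lengths decide part of this order. Tmx3 has 9933 bases of annotated exon but a longest transcript of 4611 bases, and with the longest transcript as the length it moved to rank 6.

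**Figure D1:**
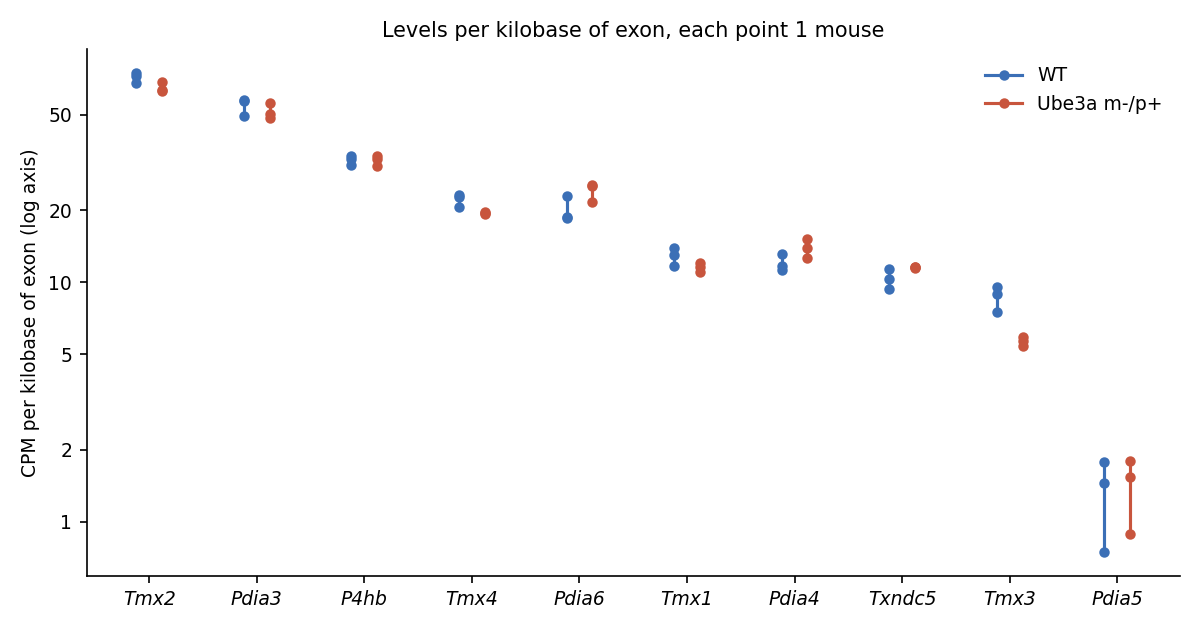
Level of each of the 10 genes in CPM per kilobase of annotated exon (log axis), with 1 point per mouse and lines joining the lowest and highest mouse of a genotype. Tmx2 and Pdia3 were at the top, Tmx3 overlapped Txndc5 in the WT mice only, and Pdia5 was last, with WT mice between 0.749 and 1.78 CPM per kilobase.

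The gene models place Tmx3 (ENSMUSG00000024614.7) on the plus strand of chromosome 18 at 90510154 to 90543267 (GRCm38, GENCODE M21), with 16 exons in its longest transcript. A pseudogene, AC163277.1, shares 491 bases of exon with it on the same strand, so that reads there could be assigned to either or to neither. Txndc5 (chromosome 13, 38500079 to 38528824, minus strand) shares 224 bases of exon with Bmp6 and 311 bases with the antisense gene Gm31834. Tmx2 (chromosome 2, 84671316 to 84679140, minus strand) shares 252 bases with the gene model Gm28635 on the same strand. Pdia6 shares 50 bases with Atp6v1c2 on the opposite strand, Tmx2 also 19 bases with Med19, and Pdia3 18 bases with Catsper2. Whether counting used strand is not given in the sources used here, so the counts of these overlaps cannot be assigned.

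Tmx3 encodes a membrane-anchored disulfide isomerase of the ER. The WT libraries held 634, 768 and 691 counts of it, and the deeper Ube3a m-/p+ libraries held 521, 638 and 564. These corresponded to 74.7, 88.5 and 94.7 CPM in the WT mice and 58.7, 56.4 and 53.6 CPM in the Ube3a m-/p+ mice. The groups did not overlap, and the highest Ube3a m-/p+ mouse lay well below the lowest WT mouse, which was WT mouse 1. The mean fell by 34.6%, from 86.0 ± 10.3 CPM to 56.2 ± 2.56 CPM (SD, n = 3 each), and the log2 fold change was -0.59 (SE 0.10). By the size of p Tmx3 stood at rank 9 of all tested genes, and by the size of the fall at rank 272.

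The fall of Tmx3 kept its direction under every setting tried but not its size. With the GC and length offsets the log2 fold change was -0.22 (SE 0.08, adjusted p = 0.176, edgeR). In the mice numbered 1, whose GC trends were alike, the ratio of the Ube3a m-/p+ mouse to the WT mouse was 0.786 (log2 -0.35). The adjusted p of the fit without offsets was 0.0358 (edgeR) and that of DESeq2 was 0.000446. Without WT mouse 2 or 3, or without Ube3a m-/p+ mouse 2 or 3, the adjusted p of edgeR lay between 0.0986 and 0.251, with log2 fold changes of -0.59 to -0.53. The share of Tmx3 in the summed counts of the 10 genes, which needs no scaling between libraries, was 8.19%, 9.21% and 9.52% in the WT mice and 6.41%, 6.41% and 6.07% in the Ube3a m-/p+ mice. The share was thus smaller in each Ube3a m-/p+ mouse than in any WT mouse. It uses the counts by which Tmx3 was chosen and is not adjusted for GC content, so it is a description only.

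**Figure D2:**
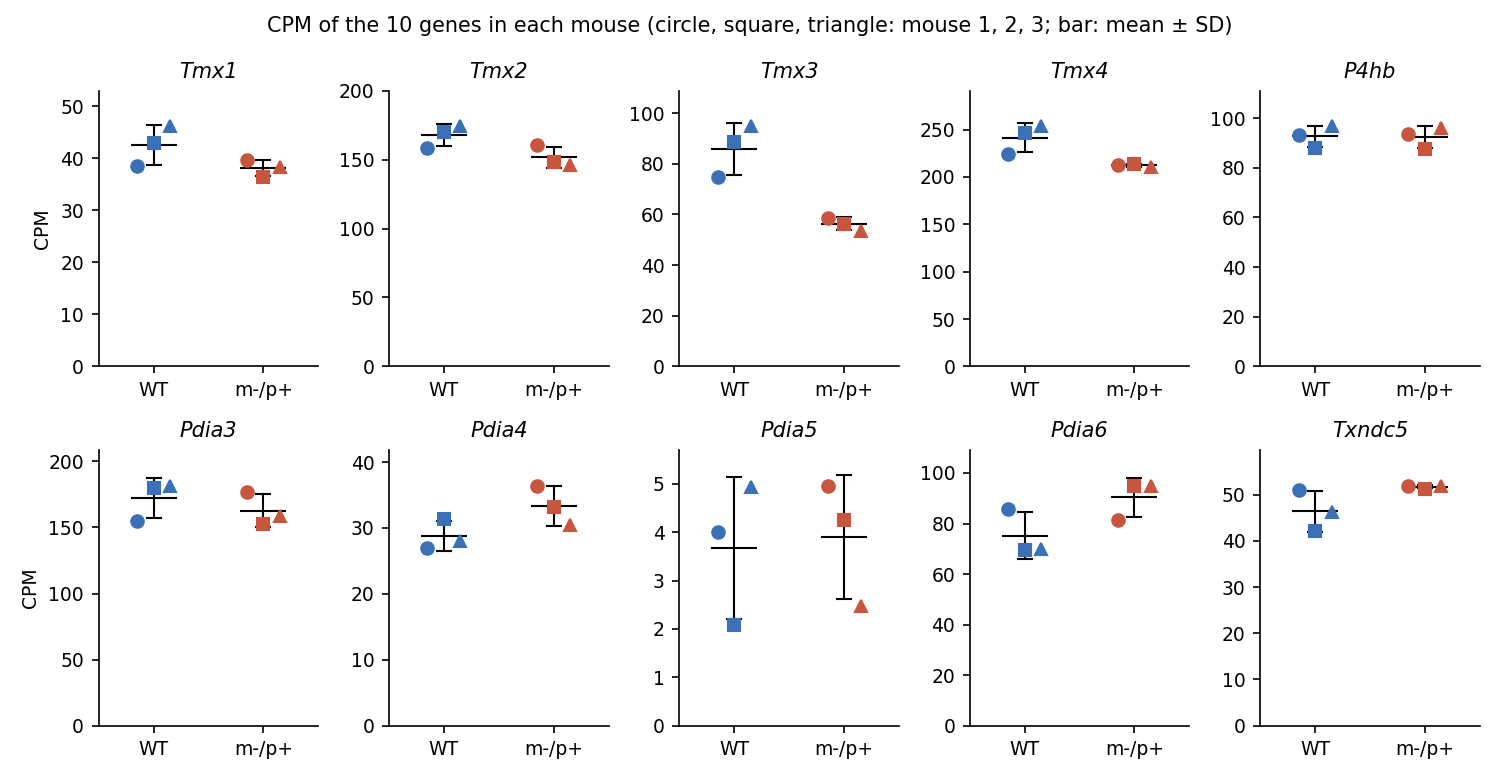
CPM of each of the 10 genes in each mouse, on axes that start at 0 (blue, WT; red, Ube3a m-/p+; circle, square and triangle, mouse 1, 2 and 3), with black lines at the mean ± SD. The genotypes do not overlap for Tmx3, at 74.7 to 94.7 against 53.6 to 58.7 CPM, nor for Tmx4 and Txndc5, and they overlap in the other panels.

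The other 3 membrane-anchored relatives also had lower means in Ube3a m-/p+ mice than in WT mice, but none passed the test. Tmx4, a reductase of the ER membrane, was at 224, 247 and 253 CPM in the WT mice and at 213, 214 and 211 CPM in the Ube3a m-/p+ mice. Its groups did not overlap, although the gap between the nearest mice was small. The log2 fold change was -0.17 (SE 0.08, adjusted p = 0.209, edgeR), and 0.05 with the GC and length offsets (adjusted p = 0.804), so the sign of Tmx4 turned. Tmx2, which is found where the ER meets mitochondria, was at 159, 170 and 174 CPM in the WT mice and at 160, 149 and 146 CPM in the Ube3a m-/p+ mice. Here Ube3a m-/p+ mouse 1 lay above WT mouse 1, and the log2 fold change was -0.12 (SE 0.08, adjusted p = 0.361, edgeR) without and -0.11 with the offsets. Tmx1, which acts on membrane-bound clients, was at 38.4, 42.9 and 46.1 CPM in the WT mice and at 39.6, 36.4 and 38.3 CPM in the Ube3a m-/p+ mice. The groups overlapped at the lowest WT mouse. The log2 fold change of Tmx1 was -0.14 (SE 0.10, adjusted p = 0.432, edgeR) and became 0.08 with the offsets. In the mice numbered 1 the ratios were 1.03 for Tmx1, 1.01 for Tmx2 and 0.948 for Tmx4, each nearer to 1 than the 0.786 of Tmx3. Summed over the 4 Tmx genes, the level was 496, 548 and 568 CPM in the WT mice and 471, 455 and 449 CPM in the Ube3a m-/p+ mice.

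The founding enzymes of the family showed no difference beyond the spread between mice. P4hb encodes protein disulfide isomerase itself, which also serves as a subunit of prolyl 4-hydroxylase. It was at 93.2, 88.1 and 96.7 CPM in the WT mice and at 93.7, 87.5 and 96.2 CPM in the Ube3a m-/p+ mice. The values of P4hb interleaved almost completely, with a log2 fold change of 0.02 (SE 0.09, adjusted p = 0.931, edgeR) and of -0.09 with the offsets. Pdia3 encodes ERp57, the isomerase that works on glycoproteins held by calnexin and calreticulin. It was at 155, 180 and 182 CPM in the WT mice and at 177, 153 and 159 CPM in the Ube3a m-/p+ mice. Each genotype held 1 mouse on the other side, in both cases the mouse numbered 1, and the log2 fold change was -0.06 (SE 0.09, adjusted p = 0.700, edgeR) without and -0.00 with the offsets. In the mice numbered 1 the ratios were 1.01 for P4hb and 1.14 for Pdia3.

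Pdia6, Pdia4 and Txndc5 had higher means in Ube3a m-/p+ mice, and none of the 3 passed the test. Pdia6, an isomerase that binds BiP, was at 85.9, 69.5 and 69.9 CPM in the WT mice and at 81.3, 94.7 and 94.96 CPM in the Ube3a m-/p+ mice. The mice numbered 2 and 3 were far apart between the genotypes, while the mice numbered 1 lay between them in the opposite order. The log2 fold change of Pdia6 was 0.28 (SE 0.11, adjusted p = 0.119, edgeR) and 0.27 with the offsets (adjusted p = 0.148). It passed the test when WT mouse 1 was left out (0.40, adjusted p = 0.0137, edgeR) or when Ube3a m-/p+ mouse 1 was left out (0.36, adjusted p = 0.0371, edgeR). Pdia4, which encodes ERp72, was at 27.0, 31.4 and 28.0 CPM in the WT mice and at 36.4, 33.2 and 30.4 CPM in the Ube3a m-/p+ mice. Only WT mouse 2 exceeded a Ube3a m-/p+ mouse. The log2 fold change of Pdia4 was 0.23 (SE 0.11, adjusted p = 0.228, edgeR), 0.26 with the offsets (adjusted p = 0.239), and 0.43 in the mice numbered 1, the largest difference of the 10 genes in that pair. Txndc5, which encodes ERp46, was at 51.0, 42.1 and 46.2 CPM in the WT mice and at 52.0, 51.4 and 51.9 CPM in the Ube3a m-/p+ mice. The groups of Txndc5 did not overlap, but WT mouse 1 came close, and the log2 fold change was 0.17 (SE 0.10, adjusted p = 0.292, edgeR) without and 0.10 with the offsets. In the mice numbered 1 the ratios were 0.947 for Pdia6, 1.02 for Txndc5 and 1.24 for Pdia5. Pdia5, a low-abundance member, had 206 counts over all 6 libraries. It ranged from 2.07 to 4.94 CPM in the WT mice and from 2.47 to 4.96 CPM in the Ube3a m-/p+ mice. Its log2 fold change was 0.11 (SE 0.33), and -0.03 with the offsets. Whether a difference of the size seen for Tmx3 could be detected at this depth was not tested.

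A gene was called where the adjusted p of edgeR was below 0.05 and the fold change exceeded 1.2. Of the 10 genes 1 was called, and it was Tmx3, which had been chosen for its fall. Among all tested genes 2.01% were called, 0.99% as lower and 1.02% as higher. At an unadjusted p below 0.05 there was 1 gene lower, Tmx3, beside 12.4% of all tested genes, and 1 higher, Pdia6, beside 12.2%. DESeq2 gave an adjusted p to 9 of the 10 genes and called 1, Tmx3, beside 10.7% of the 8989 genes it adjusted. With the GC and length offsets 0 of the 10 were called, against 0.634% of 14201 genes. Tmx3 and Tmx4 were lower in all 3 Ube3a m-/p+ mice than in any WT mouse, as were 14.2% of all tested genes. Txndc5 was higher in all 3, as were 10.8% of all tested genes. The median log2 fold change of the 10 was -0.02, beside 0.00 over all tested genes, with 5 of the 10 above 0. The summed level of the 10 genes was 912, 961 and 995 CPM in the WT mice and 916, 879 and 884 CPM in the Ube3a m-/p+ mice, which overlapped. For the 6 soluble enzymes it was 416, 413 and 427 CPM in the WT mice and 445, 424 and 435 CPM in the Ube3a m-/p+ mice, which overlapped as well.

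**Figure D3:**
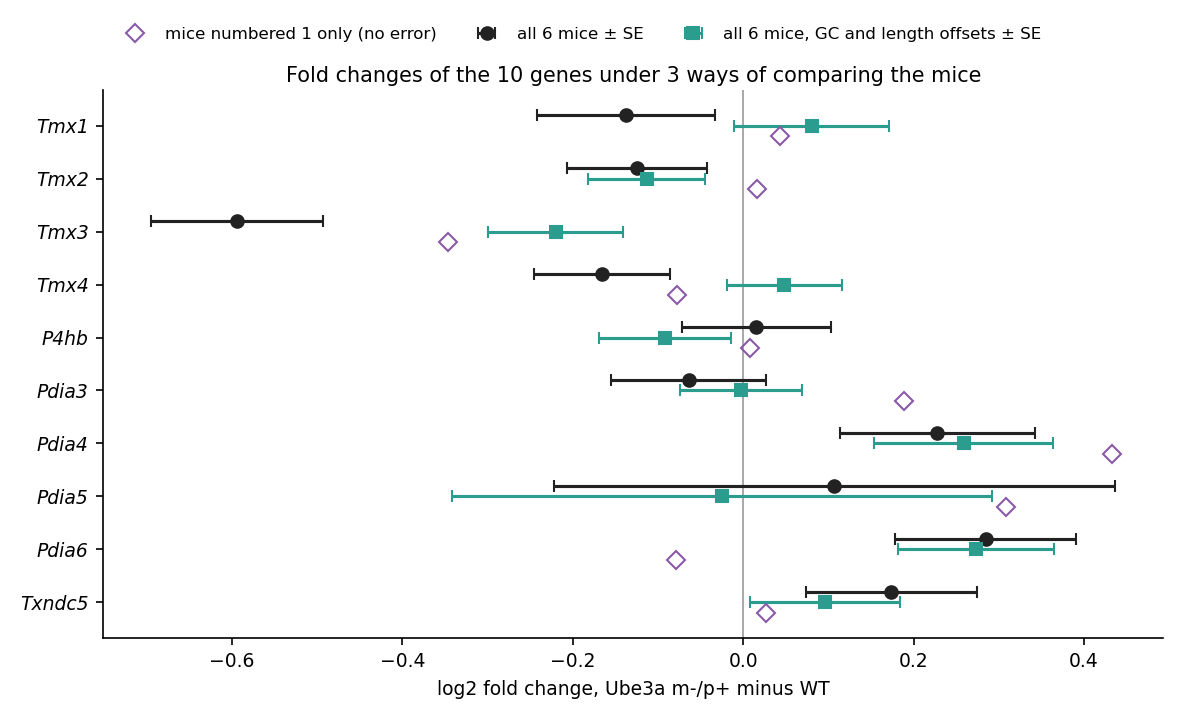
Log2 fold change of each of the 10 genes, Ube3a m-/p+ minus WT, from all 6 mice (black circles ± SE), with offsets for GC content and length (green squares ± SE) and in the mice numbered 1 alone (open diamonds, no error). Tmx3 is below 0 in each, at -0.59, -0.22 and -0.35, and Pdia4 is above 0 in each, at 0.23, 0.26 and 0.43.

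Over all tested genes, log2 fold changes were higher in genes of higher GC content. Tmx3 had the lowest GC content of the 10, at 35.3% of its longest transcript, and only 0.303% of tested genes had a lower one. Tmx1 (40.9%) and Tmx4 (42.3%) followed, then Pdia3 (46.9%), Pdia4 (47.6%), Tmx2 (48.2%), Pdia6 (48.9%), Txndc5 (52.6%), Pdia5 (53.5%) and P4hb (53.8%). Over 14201 tested genes Spearman's rho between GC content and log2 fold change was 0.622. Over the 10 genes, which share their libraries, Pearson's r was 0.792 and rho 0.685. Tmx3, chosen for its fall, had both the lowest GC content and the lowest log2 fold change of the 10. Their correlation is therefore a description only. When genes were split into 10 equal bins by GC content, the lowest bin held Tmx1 and Tmx3, and in it the median log2 fold change was -0.29, 10.3% of genes were above 0 and 6.12% were called lower. In the bin of highest GC content the median was 0.26 and 90.8% of genes were above 0. Beside the median of its own bin Tmx3 was lower by a difference of -0.30, and 7.32% of its genes were lower still. Pdia4 and Pdia6 stood on the other side, each 0.32 above the median of their bins, with 89.9% and 90.7% of those genes below them. The part of GC content in the fall of Tmx3 was not tested beyond the offsets, and the trend cannot be told apart from genotype in mice 2 and 3.

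**Figure D4:**
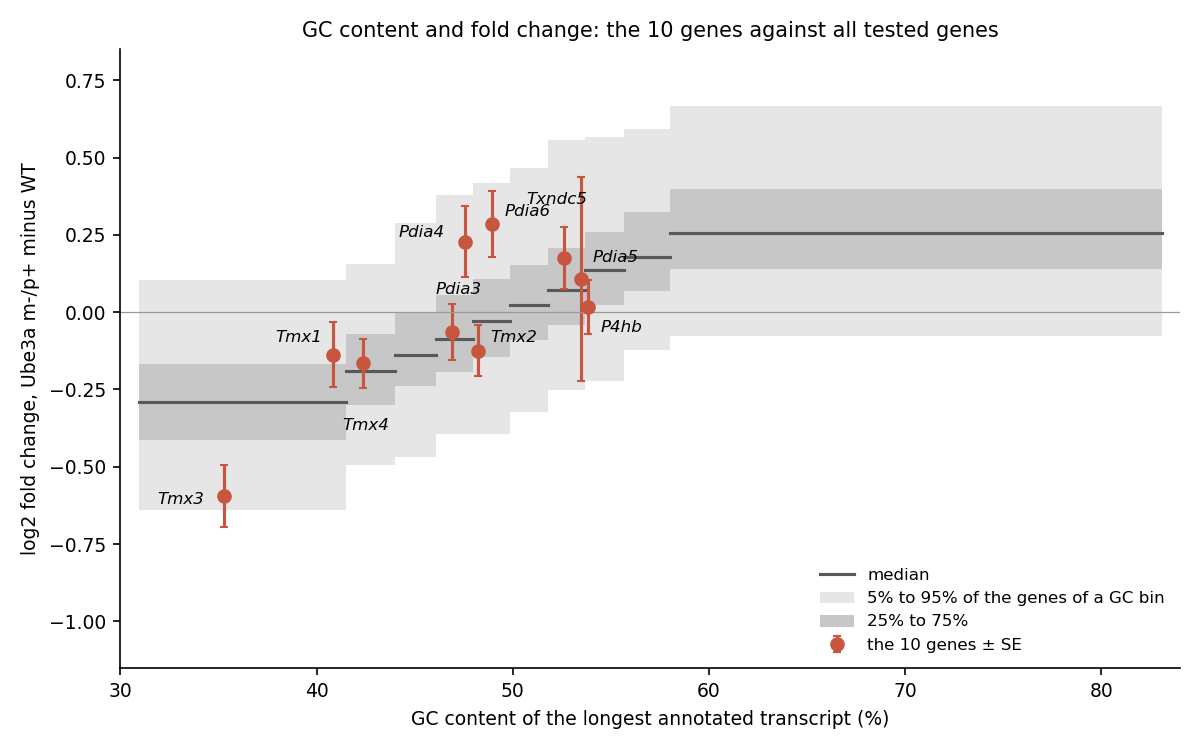
Log2 fold change (Ube3a m-/p+ minus WT) against GC content in percent (longest transcript of each gene), for the 10 genes (red points ± SE) and for all tested genes in 10 equal bins of GC content (dark line, median; grey bands, the middle 50% and 90% of genes). The medians climb from -0.29 to 0.26, and Tmx3 lies at the left edge, 0.30 below the median of its bin.

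Genes of ER folding enzymes are known to be switched on together by the unfolded protein response through the ER stress response element (ERSE), a CCAAT box that is followed 9 bases later by CCACG. The promoter windows of RefSeq (GRCm38.p6, 250 bases before to 50 after each start) were searched on both strands for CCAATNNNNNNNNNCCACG. Tmx3 was the member without a matched window, so its promoter was not searched. Of 9 matched members 1 held it, Pdia6, and of 24 matched chaperone genes 6 did, against 0.137% of all 27025 genes. The sites of Pdia6 and of the 5 chaperone genes Hspa5 (BiP), Hsp90b1, Calr, Canx and Dnajc3 are printed 5′ to 3′ on the strand that reads CCAAT first, with 10 bases on each side, the CCAAT box and CCACG in capitals, to show the letters that Pdia6 shares with the chaperones it works beside.
Pdia6, chr12:17266481-17266519, plus strand: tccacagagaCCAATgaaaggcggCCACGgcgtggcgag
Hspa5, chr2:34772015-34772053, plus strand: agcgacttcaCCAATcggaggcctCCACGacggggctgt
Hsp90b1, chr10:86705628-86705666, minus strand: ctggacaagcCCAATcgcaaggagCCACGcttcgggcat
Hsp90b1, chr10:86705523-86705561, plus strand: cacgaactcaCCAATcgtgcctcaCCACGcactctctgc
Calr, chr8:84847065-84847103, plus strand: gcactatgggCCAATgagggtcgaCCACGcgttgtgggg
Canx, chr11:50325790-50325828, minus strand: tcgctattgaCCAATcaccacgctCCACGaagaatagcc
Dnajc3, chr14:118937817-118937855, plus strand: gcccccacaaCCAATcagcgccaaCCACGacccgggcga

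Genes that carry this element had log2 fold changes of either sign. The values were 0.28 for Pdia6, 0.22 for Calr, 0.12 for Hspa5, -0.03 for Hsp90b1, -0.10 for Dnajc3 and -0.19 for Canx. The element was also found at Creld2 (0.18), Syvn1 (0.15) and Derl3 (0.16). With the offsets Pdia6 was at 0.27, Calr at 0.18, Hspa5 at 0.22, Hsp90b1 at 0.17, Dnajc3 at 0.08 and Canx at 0.01. Creld2 (-0.01), Syvn1 (-0.01) and Derl3 (-0.10) were then below 0, so which genes were lower depended on the offsets. None of these 9 genes passed the test (adjusted p from 0.118 to 0.887, edgeR) and none of the 7 that DESeq2 adjusted had an adjusted p below 0.05 by it. In the fit without the offsets Pdia6, Calr and Canx were at an unadjusted p below 0.05 (edgeR), the last of them lower. The CCAAT box alone, CCAAT on either strand, was in the windows of 6 of the 9 members and of 41.1% of all genes. A match of letters is a description and not evidence of a bound factor.

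The chaperones and glycoprotein folding factors of the ER were mostly on the higher side, without a gene that passed the test. Of 27 tested genes 19 were above 0, beside 7273 of all 14445 tested genes. The median log2 fold change of the list was 0.15, and 0.12 with the offsets. Smallest in p were Creld1 (0.37, SE 0.09, adjusted p = 0.0518, edgeR) and Cnpy3, a chaperone of Toll-like receptors (0.44, SE 0.12, adjusted p = 0.0527, edgeR). With the offsets Creld1 was at 0.15 (adjusted p = 0.385, edgeR) and Cnpy3 at 0.22 (adjusted p = 0.249, edgeR). At an unadjusted p below 0.05 were 8 genes higher and 3 lower, beside 12.2% and 12.4% of all tested genes. DESeq2 adjusted 24 of the 27 and called 3, a share near its 10.7% over all genes. These were Creld1 (adjusted p = 0.0208), Cnpy3 (0.0214) and, on the lower side, the stress-induced co-chaperone Dnajb9 (0.0330). Calr, the lectin chaperone calreticulin, was at 294, 273 and 264 CPM in the WT mice and at 330, 312 and 313 CPM in the Ube3a m-/p+ mice, without overlap (log2 fold change 0.22, adjusted p = 0.118, edgeR). Its membrane-anchored counterpart Canx, calnexin, had lower values in the Ube3a m-/p+ mice, at 315, 364 and 347 CPM in the WT mice and at 315, 286 and 290 CPM in the Ube3a m-/p+ mice (log2 fold change -0.19, adjusted p = 0.184, edgeR). The BiP gene Hspa5 overlapped between genotypes, at 160, 173 and 182 against 202, 187 and 163 CPM. These 3 genes were singled out after their values were seen, as partners of Pdia3 and Pdia6. With the offsets their log2 fold changes were 0.18 for Calr, 0.01 for Canx and 0.22 for Hspa5.

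Among 15 genes of ER oxidation and reduction 1 was called, beside 2.01% of all tested genes, and it was lower. Selenot, which encodes a selenoprotein of the ER with a thioredoxin-like fold, was at 200, 260 and 282 CPM in the WT mice and at 191, 173 and 177 CPM in the Ube3a m-/p+ mice. The groups did not overlap, although WT mouse 1 was close to Ube3a m-/p+ mouse 1. Its log2 fold change was -0.44 (SE 0.11, adjusted p = 0.0484, edgeR), and -0.17 with the offsets (adjusted p = 0.244). The median of the list was -0.13, with 5 of 15 genes above 0, beside 7273 of all 14445 tested genes. DESeq2, which adjusted 11 of the 15, called Selenot alone (adjusted p = 0.00737), beside 10.7% of all genes it adjusted. At an unadjusted p below 0.05 were 1 gene higher and 2 lower, beside 12.2% and 12.4% of all tested genes. Ero1a, listed in the files under its older symbol Ero1l, encodes the oxidase that reoxidises the P4hb protein. It was at 37.3, 45.3 and 45.8 CPM in the WT mice and at 36.9, 33.0 and 27.2 CPM in the Ube3a m-/p+ mice (log2 fold change -0.39, adjusted p = 0.0805, edgeR), and it was likewise singled out after its values were seen. The remaining members of the isomerase family were 14 genes, of which 9 were tested and 0 called by edgeR, or by DESeq2 among the 7 it adjusted, with 1 higher and 1 lower at an unadjusted p below 0.05. These were Erp29 (log2 fold change 0.34, adjusted p = 0.117, edgeR) and the ER reductase Dnajc10 (-0.26, adjusted p = 0.130, edgeR). Pdilt, Agr2 and Agr3 had no counts in any library, which allows up to 3 counts each, and Pdia2 had 27 counts in all.

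**Figure D5:**
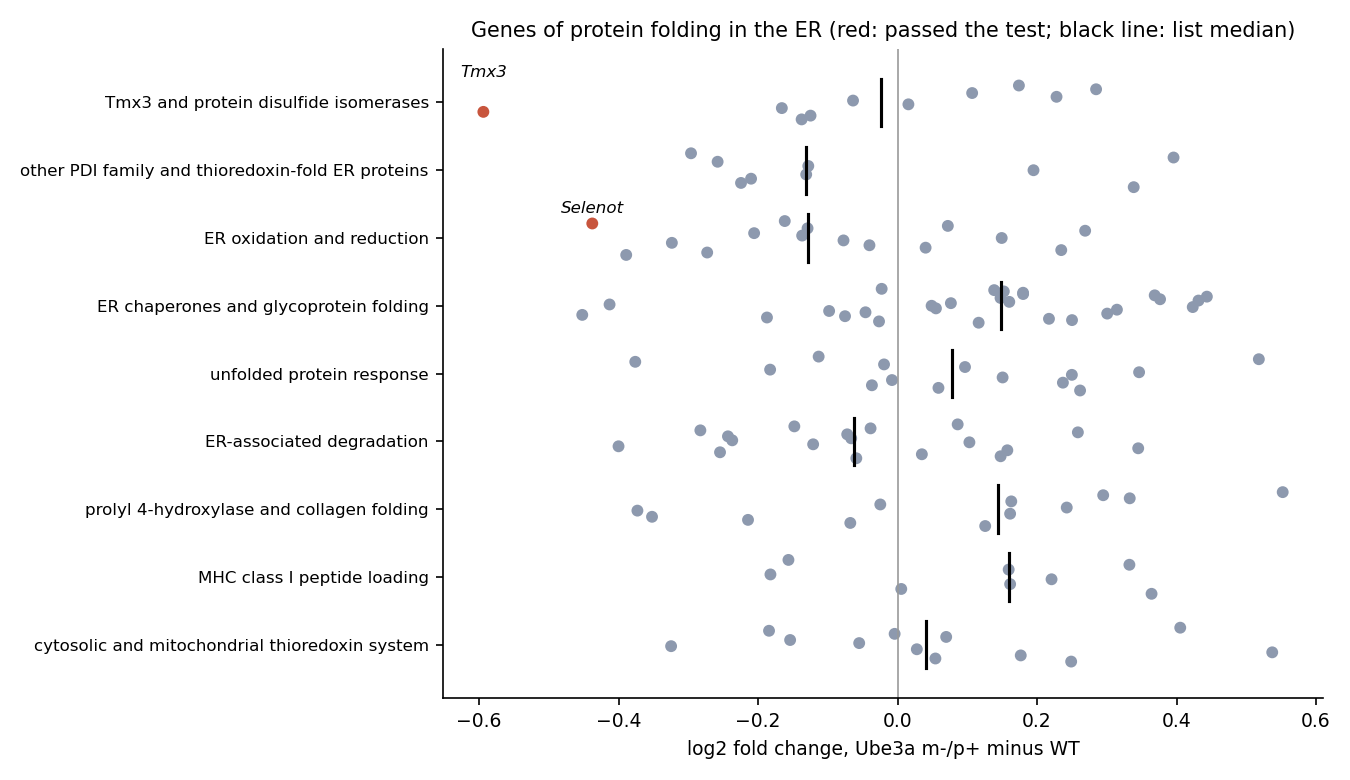
Log2 fold change (Ube3a m-/p+ minus WT) of every tested gene in each list of ER folding and redox genes, with 1 point per gene and a black line at the median. Red points passed the test, and these were Tmx3 at -0.59 and Selenot at -0.44. The chaperones have a median of 0.15 and the oxidation genes one of -0.13.

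In the other lists edgeR called 0 genes, and their counts at an unadjusted p below 0.05 are to be read against the 12.2% higher and 12.4% lower of all tested genes. Their DESeq2 calls are to be read against 10.7% of all genes that DESeq2 adjusted. The unfolded protein response had 14 tested genes and a median log2 fold change of 0.08, with 1 gene higher and 1 lower at an unadjusted p below 0.05 and 0 called among the 9 that DESeq2 adjusted. Smallest in p were Mbtps2, the protease that releases Atf6 (-0.38, adjusted p = 0.0709, edgeR), and Atf6b (0.24, adjusted p = 0.139, edgeR). ER-associated degradation had 18 tested genes and a median of -0.06, with 1 higher and 3 lower at an unadjusted p below 0.05 and 1 called among the 17 that DESeq2 adjusted. Os9, a lectin of this pathway and the gene DESeq2 called (adjusted p = 0.0487), was at 0.35 (adjusted p = 0.0880, edgeR) and Erlec1, another, at -0.40 (adjusted p = 0.103, edgeR). With the offsets Herpud1, a stress-induced part of the degradation complex, was called lower (-0.40, adjusted p = 0.0469, against -0.28 and 0.105 without, edgeR). Prolyl hydroxylation and collagen folding, in which P4hb takes part, had 12 tested genes and a median of 0.14, with 3 higher and 1 lower at an unadjusted p below 0.05 and 1 called among the 5 that DESeq2 adjusted. The collagen chaperone Serpinh1, which DESeq2 called (adjusted p = 0.0285), was at 15.2, 16.9 and 12.5 CPM in the WT mice and at 21.6, 22.9 and 20.3 CPM in the Ube3a m-/p+ mice (log2 fold change 0.55, adjusted p = 0.0513, edgeR), and P3h3 at 0.33 (adjusted p = 0.103, edgeR). MHC class I peptide loading, a process that uses Pdia3, had 8 tested genes with a median of 0.16 and none at an unadjusted p below 0.05 or called among the 3 that DESeq2 adjusted. Its genes of smallest p were B2m (-0.18, adjusted p = 0.328, edgeR) and Tap1 (0.36, adjusted p = 0.382, edgeR). The cytosolic and mitochondrial thioredoxin system had 12 tested genes with a median of 0.04, with 1 higher and 1 lower at an unadjusted p below 0.05 and 0 called among the 8 that DESeq2 adjusted. These were Txnrd2 (0.54, adjusted p = 0.105, edgeR) and Txnip, the thioredoxin inhibitor (-0.32, adjusted p = 0.105, edgeR).

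Markers of neurons and glia were found in each library, and some of them differed between the genotypes. No other brain region was compared, so the markers do not tell the region. None of 10 hippocampal neuron markers was called by edgeR, beside 2.01% of all tested genes. At an unadjusted p below 0.05 were 3 higher and 3 lower, beside 12.2% and 12.4% of all tested genes. DESeq2 called 3 of the 9 it adjusted, beside 10.7% of all genes it adjusted. The summed level of the 10 markers was 10420 to 11600 CPM in WT mice and 11040 to 12170 CPM in Ube3a m-/p+ mice. Among these neuron markers the level ran from Zbtb20, at 2.25 to 3.92 CPM, to Camk2a, at 5168 to 5933 CPM. No marker of any list was at 0 in all libraries. Summed levels of 3 marker lists did not overlap and were lower in the Ube3a m-/p+ mice. These were oligodendrocytes (8 genes, 8219 to 8339 against 6872 to 7832 CPM), microglia (8 genes, 408 to 445 against 377 to 396 CPM) and endothelium with mural cells (9 genes, 399 to 422 against 324 to 363 CPM). Those of astrocytes (8 genes), oligodendrocyte precursors (6 genes) and meninges (8 genes) overlapped. A sum follows its most abundant genes, and 14.2% of all tested genes were lower without overlap. Single genes of the 3 lower lists went both ways. Log2 fold changes above 0 were found for 3 of 8 oligodendrocyte, 4 of 8 microglia and 3 of 9 endothelial or mural markers. The 8 markers of choroid plexus and ependyma summed to between 113 and 2184 CPM in WT mice and between 126 and 2280 CPM in Ube3a m-/p+ mice, and thus varied within each genotype. Called markers were Pdgfra (-0.43, adjusted p = 0.0466, edgeR) and Rgs5 (-0.51, adjusted p = 0.0387, edgeR) as lower, and Col1a1 (0.73, adjusted p = 0.0416, edgeR) and Foxj1 (1.01, adjusted p = 0.0361, edgeR) as higher. DESeq2 called 2 precursor and 3 endothelial or mural markers, beside 10.7% of the genes it adjusted. These included Sox10 (0.31, adjusted p = 0.0438) and Cldn5 (0.46, adjusted p = 0.0458) as higher and Slco1a4 (-0.41, adjusted p = 0.0276) as lower (DESeq2). With the offsets Sox10 was at 0.04, Cldn5 at 0.16 and Slco1a4 at -0.18. With the offsets Pdgfra (-0.36, adjusted p = 0.0482) and Foxj1 (0.74, adjusted p = 0.0384) were still called, Rgs5 (-0.30) and Col1a1 (0.55) were not (adjusted p = 0.0754 for both), and the oligodendrocyte gene Mobp was (-0.33, adjusted p = 0.0469, against -0.24 and 0.112 without, edgeR). In the lists with no call, the genes of smallest p were Slc17a7 (0.35, adjusted p = 0.0638) and Wfs1 (-0.34, adjusted p = 0.0769) of neurons, and Gja1 (-0.25, adjusted p = 0.0877) and Aqp4 (-0.28, adjusted p = 0.0897) of astrocytes (edgeR). For microglia they were P2ry12 (-0.49, adjusted p = 0.0590) and C1qa (0.47, adjusted p = 0.132, edgeR). The part of cell makeup in the values of Tmx3 and the isomerases was not tested.

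The genes whose log2 CPM followed Tmx3 most closely over the 6 libraries were not disulfide isomerases. They were Fgf10 (Pearson's r 0.998), Commd8 (0.997), Slc25a36 (0.997), Cebpz (0.996) and Zfp958 (0.996). Each of them was lower in the Ube3a m-/p+ mice without overlap, as were 14.2% of all tested genes. This follows from how they were picked, since Tmx3 was itself chosen for its fall. Fgf10, for instance, was at 16.4, 19.6 and 20.98 CPM in the WT mice and at 13.3, 13.1 and 12.1 CPM in the Ube3a m-/p+ mice, and Slc25a36, a mitochondrial carrier, at 41.0, 47.6 and 52.4 against 32.8, 32.7 and 31.3 CPM. Such likeness was common. Of 14444 other tested genes, 1197 had r above 0.9 with Tmx3 and 420 above 0.95, and the points share the libraries, their depth and their GC trends. The GC contents of these 5 genes lay between 37.9% and 43.4%. Within the family, r with Tmx3 was 0.975 for Tmx4, 0.92 for Tmx2 and 0.857 for Tmx1. For the soluble enzymes it was 0.626 for Pdia3, 0.0308 for P4hb, -0.0344 for Pdia5, -0.561 for Pdia4, -0.823 for Txndc5 and -0.896 for Pdia6.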

How the data were processed

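Hippocampal RNA-seq libraries of 3 WT and 3 Ube3a m-/p+ mice were used. The authors deposited raw counts per gene symbol for each library. The submitters' processing notes name STAR 2.7.4a, HTSeq and genome build mm10, while the annotation and the strand setting are not given in the sources used here. Of the counted reads, 39% to 41.8% were assigned to genes and 54.1% to 55% to no feature, and lines that name no gene were left out.

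Counts were filtered with filterByExpr (minimum count 10), scaled by TMM and tested with edgeR 4.0.16 (quasi-likelihood, R 4.3.3, two-sided, Benjamini-Hochberg over 14445 genes). Called genes had an adjusted p under 0.05 and changed by over 1.2 fold. Offsets came, for each library, from natural splines (5 degrees of freedom) on transcript GC content and length (longest GENCODE M21 model), known for 98.3% of tested genes. CPM used total gene counts. DESeq2 1.42.0 and the other alternatives are given below. On simulated counts with 198 tested genes changed 2-fold, edgeR recovered 89.4% with 3 false calls. The simulated counts held no GC trend, and their change was larger than the 1.2 fold threshold. They check the fit and do not give its error rate in these libraries. Counts of different mice differed by more than sampling noise in every pair of libraries (chi-square per degree of freedom from 3.4).

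The 10 genes and all lists were chosen with earlier results of these data known. Named were Ube3a, the 10 genes, in each list the called genes (or, with none called, the 2 of smallest p) and the 5 genes most correlated with Tmx3, with exceptions marked in the text. For oligodendrocyte markers 1 gene of smallest p is not reported here. The RefSeq promoter table matched 9 of the 10 genes, all but Tmx3.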

Additional observations from a re-analysis of the deposited data

How the results depend on the processing

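The directions of Ube3a, Tmx3, Pdia4 and Txndc5 held under every alternative run, and the sign of each of the other 7 genes turned under at least 1. The log2 fold change of Tmx3 was -0.59 with the replicate block (adjusted p = 0.216, edgeR), -0.22 with the GC and length offsets (0.176), -0.22 with both (0.33), and -0.68 to -0.53 with 1 mouse left out. That of Ube3a was -0.57, -0.21 and -0.21 in the same 3 fits, no longer past the threshold, -0.10 in the mice numbered 1 and -0.73 to -0.48 with 1 mouse left out. Signs turned with the offsets, without and with the replicate block, for Tmx1 (0.0804 and 0.0798), Tmx4 (0.0484 and 0.0463), P4hb (-0.0915 and -0.0924) and Pdia5 (-0.0250 and -0.00682). P4hb was at -0.00257 when scaled by library size only, and ranged from -0.0207 to 0.0650 with 1 mouse left out, and Pdia5 from -0.18 to 0.36. In the mice numbered 1, a comparison chosen after seeing the data, signs turned for Tmx1 (0.0432), Tmx2 (0.0158), Pdia3 (0.19) and Pdia6 (-0.0793).

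Of all tested genes 290 were called, 1176 with no filter, 961 by DESeq2, 90 with the offsets, 0 with the replicate block, 3 with both, 2832 at an unadjusted p, and 0 to 2582 with 1 mouse left out (2582 without WT mouse 1 and 1816 without Ube3a m-/p+ mouse 1). With the block 2422 genes had an unadjusted p below 0.05, against 3560 without. Of the 10 genes 0 were called with the offsets, the block or both, 2 at an unadjusted p, and 0 to 2 with 1 mouse left out. Over the 8 lists of other folding and redox genes 1 was called, 9 with no filter, 3 with at least 10 counts in every library, 4 with DESeq2 size factors and 6 by DESeq2. The offsets alone gave 1, the block gave 0 whether alone or combined with the offsets, an unadjusted p gave 21, and leaving 1 mouse out gave 0 to 23. With the longest transcript as the length 3 of the 10 kept their rank by level. Deviations of same-numbered mice correlated at -0.304, -0.177 and -0.317. The GC trends of the libraries enter these deviations, so the values cannot decide whether the replicate numbers were paired. The 2 mice numbered 1 had the lowest chi-square per degree of freedom of all pairs of libraries (3.4). Whether same-numbered libraries shared a batch was not tested, and neither was the cause of the shifts between settings. Depth limits Pdia5 most, with 206 counts and the largest SE of the 10 genes (0.33).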
